A study of Mus musculus with 2 samples.

Results

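Creatine kinase, creatine synthesis and adenylate kinase genes were examined in sorted parietal cells, which secrete the acid of the stomach, from C57BL/6 mice. The 9 genes (Ckb, Ckm, Ckmt1, Ckmt2, Gatm, Gamt, Ak1, Ak3 and Ak4) were taken by name from the 38087 Ensembl genes of each deposited table, and all 9 were found. The mice were on a high fat diet (HFD) or were controls, and each of these 2 groups gave 1 sequencing library of total RNA. Not given in the sources used here are the feeding time, the age and number of mice and the sorting marker. Values are RPKM (reads per kilobase of gene, scaled to library depth in M reads); the tables hold their log2, and a gene at or below 1 RPKM is listed as 0. Of the 9 genes, 6 were listed above 0, each in both libraries, and 3 (Ckm, Ckmt2 and Gatm) were listed at 0 in both. With 1 library per diet no difference could be tested, and every ratio below is between these 2 libraries.

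Creatine kinases move phosphate between ATP and creatine, which lets a cell hold a reserve of phosphocreatine close to enzymes that consume ATP quickly. A mitochondrial form loads creatine where ATP is made, and a cytosolic form regenerates ATP where it is spent, as at the proton pump of the parietal cell, an ATPase. Adenylate kinases interconvert ATP, ADP and AMP. They serve the same kind of relay and set the AMP level that the AMP-activated kinase senses. Creatine itself is made from arginine and glycine by Gatm and then Gamt, or taken up from blood by the transporter Slc6a8.

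The 4 creatine kinase genes are paralogs, so the first question for their values was whether reads of one could be counted for another. Their coding sequences around the codon of the active-site cysteine, read from the GENCODE M21 transcripts on GRCm38, are shown because this is among the most conserved parts of the enzyme. Bases in capitals differ from Ckb, and each line runs 5′ to 3′ over 60 bases.
Ckb: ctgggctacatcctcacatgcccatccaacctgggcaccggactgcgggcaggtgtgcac
Ckm: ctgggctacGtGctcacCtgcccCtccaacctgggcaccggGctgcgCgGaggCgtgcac
Ckmt1: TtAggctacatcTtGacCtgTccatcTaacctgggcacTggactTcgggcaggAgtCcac
Ckmt2: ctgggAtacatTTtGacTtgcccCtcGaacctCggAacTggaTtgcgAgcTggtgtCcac
Ckm differed from Ckb at 8 of these 60 bases, Ckmt1 at 11 and Ckmt2 at 14. Over the whole coding sequence Ckb and Ckm were 76.4% identical and Ckmt1 and Ckmt2 72.7%. The longest run of identical bases between any 2 of these genes was 39, in the mitochondrial pair, so none of them shared a stretch of 50 bases with another. The read length was not stated in these sources.

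The 2 genes of the non-muscle pair were abundant and those of the muscle pair were not listed. Ckmt1, the ubiquitous mitochondrial creatine kinase (ENSMUSG00000000308, chromosome 2, 121357714 to 121363737, plus strand, mm10), stood at 191 RPKM with HFD and 196 RPKM in the control library. Its ratio of HFD to control was 0.978, with a 95% counting interval of 0.946 to 1.01 that holds equality. Only 1.02% and 0.923% of the protein-coding genes listed in the HFD and control libraries stood higher. Ckb, the brain-type cytosolic form (ENSMUSG00000001270, chromosome 12, 111669361 to 111672338, minus strand), stood at 109 RPKM against 118 RPKM in the control library, for a ratio of 0.930 (0.893 to 0.968). These intervals come from reads estimated from RPKM, exon length and depth; only counting error enters them, not differences between mice.

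Ckm, the muscle cytosolic form (ENSMUSG00000030399, chromosome 7, 19404776 to 19422841, plus strand), was listed at 0 in both libraries, as was Ckmt2, the sarcomeric mitochondrial form (ENSMUSG00000021622, chromosome 13, 91853387 to 91876885, minus strand). A value of 0 does not exclude reads: at the floor of 1 RPKM a gene of the exon length of Ckm would hold 74.3 reads with HFD and 28.7 in the control library. Most markers of skeletal muscle were not listed either. Of 13 such genes, 10 were listed at 0 in each library, among them the myosin heavy chains Myh1, Myh2 and Myh4 and the calcium pump Atp2a1, and the summed level was 8.32 RPKM in the HFD and 14.8 RPKM in the control library. The fast troponin gene Tnni2 made up most of the latter sum, at 11.1 RPKM in the control library against 3.13 RPKM with HFD. Of 7 cardiac markers, 6 and 4 were at 0, including Myh6, but the troponin gene Tnni3 stood at 359 against 127 RPKM.

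**Figure D1:**
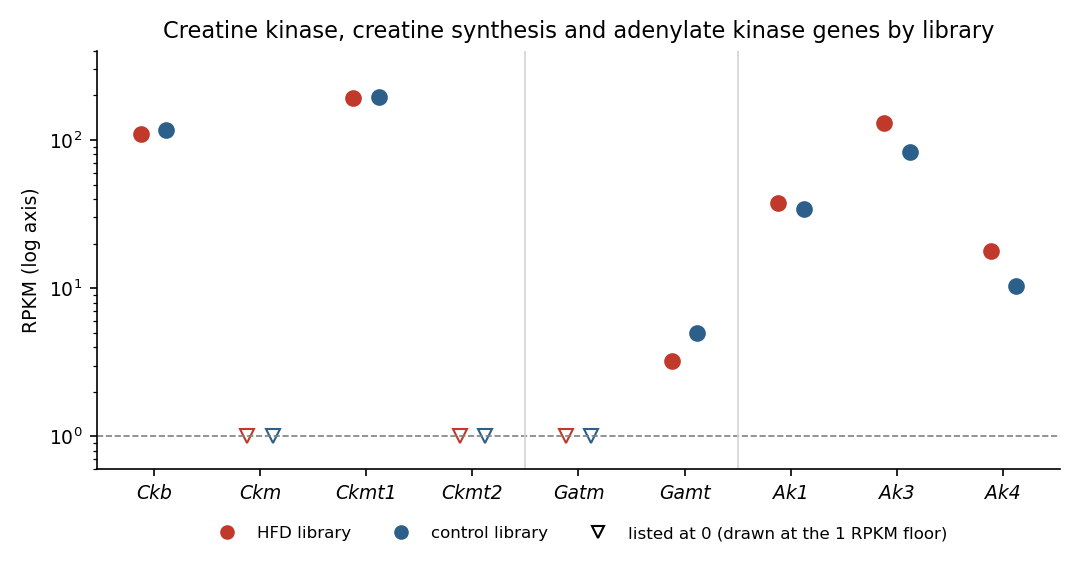
RPKM of the 9 genes on a log axis, with 1 point per library (HFD red, control blue) and open triangles at the 1 RPKM floor for genes listed at 0; no error can be drawn with 1 library per diet. Ckmt1, Ckb and Ak3 are the highest, between 83.0 and 196 RPKM, and Ckm, Ckmt2 and Gatm lie at the floor in both libraries.

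As listed, the mitochondrial transcript exceeded the cytosolic one by a similar factor in both libraries, an order that turns when reads of a pseudogene are counted for Ckb. Ckmt1 stood at 1.75 times Ckb in the HFD library (1.70 to 1.80) and 1.66 times in the control library (1.59 to 1.74). The ratio of these ratios, which no scaling of a library can change, was 1.05 (0.998 to 1.11). Summed over the family, creatine kinase stood at 301 RPKM in the HFD and 313 RPKM in the control library.

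A processed pseudogene, an intronless genomic copy of a spliced transcript, makes the level of Ckb uncertain. Gm12892 (ENSMUSG00000083679, chromosome 4, 122008193 to 122009338) aligned with the Ckb transcript over 1143 bases at 97.3% identity, and 9.89% of the 50-base words of Ckb transcripts also occurred in it. It was listed at 274 RPKM with HFD and 229 RPKM in the control library, above Ckb in each. In estimated reads, Gm12892 held 8009 and Ckb 8071 in the HFD library, and 2581 and 3349 in the control library. The ratio between the libraries was 1.20 for the copy (1.15 to 1.25) and 1.05 for the reads of both genes summed (1.02 to 1.08), whereas it was 0.930 for Ckb alone. With these reads counted for Ckb, over its own length, its level was 218 RPKM in the HFD and 208 RPKM in the control library. Ckmt1 then stood below Ckb, at 0.878 times (0.857 to 0.899) and 0.939 times (0.904 to 0.976). The sum over the family was then 409 and 404 RPKM, so its direction turned as well. The direction for Ckb thus depends on whether these reads are counted with it, and whether they come from Ckb transcripts was not tested. The counting rule was not given, so reads matching both genes may already have been counted for each. The summed levels, and the order of genes that rests on them, would then hold some reads more than once. Ckmt1 shared no 50-base word with another annotated gene.

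For Ak4 the same check found Ak3l2-ps (ENSMUSG00000081957, chromosome 2, 72633936 to 72634607), 99.6% identical over 672 bases. This copy was listed at 20.6 RPKM in the HFD and 17.5 RPKM in the control library, and held 354 and 116 estimated reads beside the 2095 and 472 of Ak4. With both summed the ratio was 1.61 (1.47 to 1.76), against 1.71 for Ak4 alone, so the copy did not change the direction. Here too, reads matching both genes may have been counted for each.

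**Figure D2:**
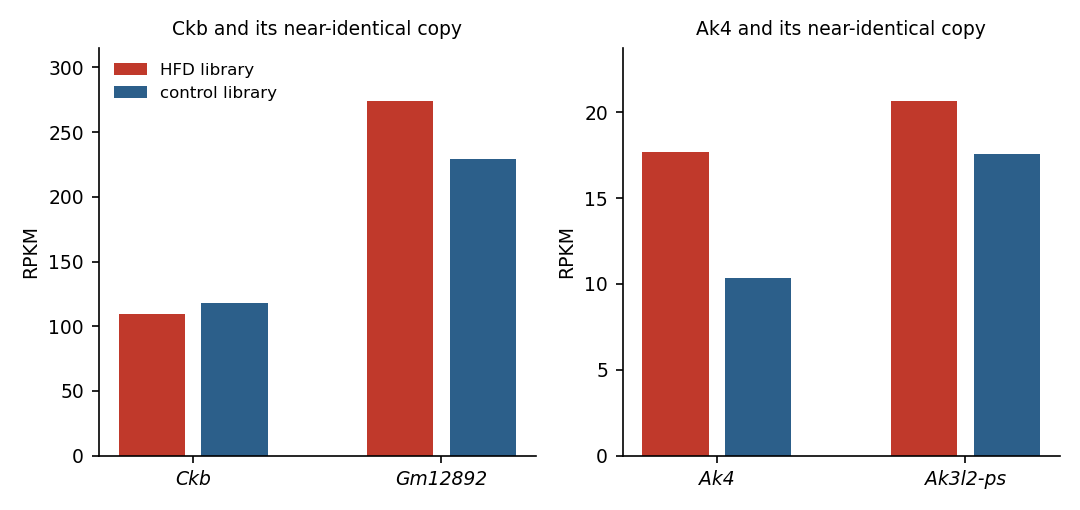
RPKM of Ckb and Ak4 and of the processed pseudogene closest to each, in the HFD (red) and control (blue) library; bars start at 0 and have no error bars because each is 1 library. Gm12892 stands above Ckb in both libraries, at 274 and 229 RPKM against 109 and 118 RPKM, and Ak3l2-ps stands above Ak4.

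The upstream regions of the cytosolic pair are shown because 1 gene of the pair was abundant in both libraries and the other was at the floor in both. Each holds the 250 bases before the start annotated in RefSeq, from the RefSeq promoter table on GRCm38.p6, 5′ to 3′ on the strand of the gene. For Ckm this start differs from that of the GENCODE gene, which begins upstream at 19404776, so its window lies inside the GENCODE span. Capitals mark matches, on either strand, to TATAAATA, TATATAA or CCAAT, the first 2 being forms of the TATA box and the last the CCAAT box.
Ckb, chr12:111672339-111672588, minus strand: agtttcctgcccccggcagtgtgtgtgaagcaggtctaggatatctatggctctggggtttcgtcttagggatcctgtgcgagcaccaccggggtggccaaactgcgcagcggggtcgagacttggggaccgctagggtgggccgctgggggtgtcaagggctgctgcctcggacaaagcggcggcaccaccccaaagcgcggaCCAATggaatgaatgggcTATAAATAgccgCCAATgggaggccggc
Ckm, chr7:19410844-19411093, plus strand: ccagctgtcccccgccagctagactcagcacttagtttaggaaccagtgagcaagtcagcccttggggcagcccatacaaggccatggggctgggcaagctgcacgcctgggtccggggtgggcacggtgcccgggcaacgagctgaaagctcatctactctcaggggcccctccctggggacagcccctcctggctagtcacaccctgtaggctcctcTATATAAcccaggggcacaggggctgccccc
TATAAATA occurred in the Ckb window and in 1.56% of all 32851 windows of the table, and TATATAA in the Ckm window and in 3.04%. CCAAT occurred in 7 of the 16 windows of the 9 genes, 3 of which are overlapping windows of Ak4 with the same match, and in 33.8% of all windows. TCAAGGTCA, the motif bound by estrogen-related receptors, was in none of the 16 and in 0.387% of all. These matches describe letters in the windows and say nothing about binding.

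Of the 2 enzymes that make creatine, only the second was listed. Gatm (ENSMUSG00000027199, chromosome 2, 122594467 to 122611303, minus strand), which joins arginine and glycine to guanidinoacetate, was at 0 in both libraries; 76.5 reads with HFD and 29.5 in the control library would have put it at the floor. Gamt (ENSMUSG00000020150, chromosome 10, 80258151 to 80261012, minus strand), which methylates guanidinoacetate to creatine, stood at 3.24 RPKM with HFD and 4.97 RPKM in the control library. Its ratio was 0.652 (0.478 to 0.880) on about 119 and 71 reads, the fewest behind any of the 6 listed genes. Slc6a8, the creatine transporter (ENSMUSG00000019558), stood higher in the HFD library, at 11.6 against 5.88 RPKM, a ratio of 1.98 (1.75 to 2.25). Among protein-coding genes listed in both libraries, 7.37% had a ratio at least that high. Gatm and Gamt are also known from the exocrine pancreas, and the libraries differed in markers of pancreatic acinar cells. All 12 were lower with HFD and 9 of them were at 0 there, with a summed level of 1831 RPKM against 13734 RPKM in the control library. Clps alone held 1790 and 12989 RPKM of these sums. The part of acinar cells in the Gamt difference was not tested.

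The adenylate kinases are more distant from each other than the creatine kinases. Their nucleotide-binding loop is shown to make this visible. Each line holds 60 coding bases 5′ to 3′, and capitals differ from Ak1.
Ak1: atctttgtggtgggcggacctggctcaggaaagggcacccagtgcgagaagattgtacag
Ak3: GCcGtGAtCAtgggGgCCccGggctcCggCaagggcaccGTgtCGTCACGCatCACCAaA
Ak4: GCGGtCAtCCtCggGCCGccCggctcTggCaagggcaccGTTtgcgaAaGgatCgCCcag
Ak3 differed from Ak1 at 29 of the 60 bases and Ak4 at 24. Ak3 and Ak4 were 63.5% identical over their coding sequences, with a longest identical run of 18 bases, so the 2 matrix forms shared no stretch of 50 bases either.

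Both forms of the mitochondrial matrix were higher in the HFD library. Ak3 (ENSMUSG00000024782, chromosome 19, 29020833 to 29047961, minus strand), which moves phosphate from GTP to AMP, stood at 131 RPKM with HFD and 83.0 RPKM in the control library, for a ratio of 1.58 (1.51 to 1.65). Ak4 (ENSMUSG00000028527, chromosome 4, 101419277 to 101466995, plus strand), the other matrix form, stood at 17.7 against 10.3 RPKM, a ratio of 1.71 (1.55 to 1.90). Among protein-coding genes listed in both libraries, 16.1% had a ratio at least as high as Ak3 and 12.1% one at least as high as Ak4. Part of Ak3 lies opposite Cdc37l1: 12.4% of its 50-base words occur in the antisense direction in that gene, which was listed at 9.53 and 6.43 RPKM, far below Ak3. Whether counting used the strand was not stated.

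Ak1, the cytosolic form (ENSMUSG00000026817, chromosome 2, 32621758 to 32635058, plus strand), was close to equal, at 37.5 RPKM with HFD and 34.3 RPKM in the control library, for a ratio of 1.09 (1.01 to 1.18). Ak6, a nuclear form, stood at 12.7 against 9.87 RPKM; its locus overlaps that of Taf9 on the same strand. Ak5, Ak7, Ak8 and Ak9 were at 0 in both libraries.

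Ratios between genes of 1 library do not depend on scaling, so the adenylate kinases were also compared within each library. Ak3 stood at 3.49 times Ak1 in the HFD library (3.34 to 3.64) and at 2.42 times Ak1 in the control library (2.24 to 2.62), a ratio of ratios of 1.44 (1.32 to 1.57). Between the matrix forms themselves, Ak3 stood at 7.39 times Ak4 with HFD and 8.03 times in the control library, and the interval of that ratio of ratios held 1 (0.920, 0.826 to 1.03). The order of the 6 listed genes by level was Ckmt1, Ak3, Ckb, Ak1, Ak4 and Gamt in the HFD library. In the control library it was the same except that Ckb stood above Ak3. With the reads of Gm12892 counted for Ckb, Ckb stood first in both libraries and the order of the other 5 genes was the same in both.

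Ak3 and Ckb changed places between the libraries as listed, but not with the reads of Gm12892 added. Relative to Ckb, Ak3 stood at 1.20 times with HFD and at 0.706 times in the control library. With those reads counted for Ckb it stood at 0.600 times (0.585 to 0.615) and 0.399 times (0.380 to 0.418), and the ratio of ratios was 1.51 instead of 1.69. Relative to Ckmt1 the difference was of the same kind: Ckmt1 stood at 1.46 times Ak3 in the HFD library (1.42 to 1.50) and at 2.36 times in the control library (2.25 to 2.47). Slc25a4 exchanges ADP for ATP across the inner mitochondrial membrane. Ak3 stood at 1.25 times Slc25a4 with HFD (1.21 to 1.29) and at 1.27 times in the control library (1.19 to 1.35). This only restates their ratios between the libraries, 1.58 for Ak3 and 1.60 for Slc25a4. Among protein-coding genes listed in both libraries, 16.1% and 15.4% had ratios at least as high as these.

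The proton pump is a main consumer of ATP in this cell, so the levels were also set against its catalytic subunit Atp4a, at 4997 RPKM in the HFD and 4324 RPKM in the control library. For each 100 RPKM of Atp4a, Ckmt1 stood at 3.83 RPKM with HFD and 4.52 RPKM in the control library, and Ckb at 2.19 and 2.72 RPKM. Ak3 stood at 2.62 and 1.92 RPKM per 100, and Ak4 at 0.354 and 0.239 RPKM. Relative to the pump transcript, then, the creatine kinases were lower in the HFD library (ratios of ratios 0.846 for Ckmt1, and 0.804 for Ckb or 0.905 with the reads of Gm12892 added) and the matrix adenylate kinases higher (1.36 and 1.48). Atp4a itself had a ratio of 1.16, and 63.8% of protein-coding genes listed in both libraries had a ratio no higher. Being lower relative to Atp4a was thus the usual case and not particular to the creatine kinases. For Ak1 the interval of 0.876 to 1.02 held 1.

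None of the 6 listed genes passed 2-fold in either direction on the scale of log2(RPKM + 1). As the background, 12.5% of all 16037 listed genes passed it upward with HFD and 23.9% downward; among the protein-coding ones these shares were 8.02% and 20.1%. The median difference over the 6 genes was 0.05, with 3 higher and 3 lower, against -0.13 over all listed genes, of which 44.0% were higher with HFD. The 6 had to lie above the floor in at least 1 library to be counted, and the other 3 are not part of these values. Protein-coding genes listed in both libraries had ratios with quartiles of 0.674 and 1.35. Ckb, Ckmt1 and Ak1 lay between these quartiles, Ak3 and Ak4 above them, and Gamt below. With the 20 most abundant genes left out of the scaling total, the ratio was 1.03 for Ak3, 1.12 for Ak4, 0.719 for Ak1, 0.611 for Ckb, 0.642 for Ckmt1 and 0.428 for Gamt, so the direction of Ak1 turned and that of Ak3 and Ak4 stayed only just above 1. Gamt was then past 2-fold lower as a plain ratio, but not on the log2(RPKM + 1) scale, at -0.93.

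**Figure D3:**
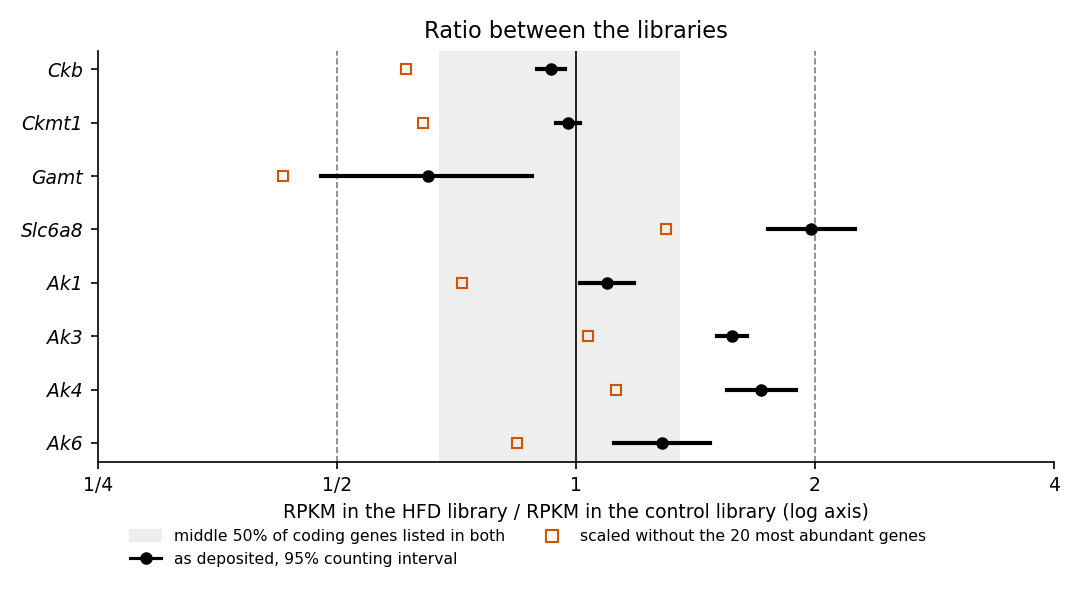
Ratio of RPKM in the HFD library to the control library on a log axis, with the 95% counting interval (black) and the ratio after scaling without the 20 most abundant genes (orange squares, shifted by the same factor for every gene); the grey band is the middle 50% of protein-coding genes listed in both libraries and dashed lines mark 2-fold. Ak3, Ak4 and Slc6a8 lie to the right of the band at 1.58, 1.71 and 1.98, and Ckb and Ckmt1 lie near 1.

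The wider pathway was read from 7 gene lists with 74 genes, 62 of them listed in either library. Over 2-fold, 4 of these were higher with HFD and 11 were lower, beside 12.5% and 23.9% of all listed genes. The median of the 62 was -0.07, close to the -0.13 of all listed genes. With the 20 most abundant genes left out of the scaling total, the medians of all 7 lists lay below 0, between -0.99 and -0.22, as did that of all listed genes, at -0.63. Entering genes listed at 0 at the 1 RPKM floor, with no pseudocount, put 6 of the 62 genes over 2-fold higher and 8 lower, against 11.3% and 17.8% of all listed genes. The lists below are given by their counts on the same log2(RPKM + 1) scale, as deposited.

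The next list holds 19 genes of creatine transport and of the transport, supply or use of its precursors and methyl groups. Of these, 17 were listed, 5 higher and 12 lower with HFD, with a median of -0.46. Past 2-fold, 1 was higher and 4 lower, beside the 12.5% and 23.9% of all listed genes. Of the 4, the cationic amino acid transporter Slc7a2 (1.23 RPKM in the control library) and Mat1a (1.07 RPKM), which makes the methyl donor, pass only because the HFD value is entered as 0 and not as the floor. Ahcy, which removes the S-adenosylhomocysteine left by Gamt and other methyltransferases, stood at 1.83 RPKM against 10.3 RPKM in the control library, 5.65 times lower (4.59 to 7.01). Gnmt, a glycine methyltransferase that competes for the same methyl donor, was listed at 0 with HFD and at 7.70 RPKM in the control library. Oat, which links ornithine with glutamate metabolism, stood at 48.0 against 79.9 RPKM, and Shmt2, which makes glycine in mitochondria, at 14.5 against 20.5 RPKM. Mat2a, which makes the same donor, differed little (18.6 against 17.4 RPKM), and the taurine transporter gene Slc6a6 stood at 41.8 against 30.7 RPKM. Slc6a8 had the highest ratio of those listed in both libraries. Arg2, a mitochondrial arginase, was listed in the HFD library only, at 4.40 RPKM. The part of acinar or other non-parietal cells in the values of this list was not tested.

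The carriers and channels that pass adenine nucleotides and phosphate through the mitochondrial membranes were split. Of 11 genes 10 were listed, 5 higher and 5 lower, with a median of -0.02. None was over 2-fold higher and 1 was over 2-fold lower, beside the 12.5% and 23.9% of all listed genes. Slc25a4 stood at 105 RPKM with HFD and 65.4 RPKM in the control library, for a ratio of 1.60 (1.51 to 1.70). Among protein-coding genes listed in both libraries, 15.4% had a ratio at least that high. Slc25a5, the paralog of Slc25a4, was more abundant and nearly equal, at 216 and 204 RPKM. Vdac1, the main channel of the outer membrane, stood at 69.1 and 64.0 RPKM, and the phosphate carrier Slc25a3 at 46.0 and 49.9 RPKM. Slc25a42, a carrier of coenzyme A, had the highest ratio of the list (7.65 against 3.43 RPKM). It was past 2-fold as a plain ratio, at 2.23 (1.91 to 2.59), but not on the log2(RPKM + 1) scale, at 0.96. Slc25a25, an ATP-Mg and phosphate carrier, had the lowest ratio (1.41 against 4.61 RPKM). Near-identical copies were searched for the 9 genes only, not for these carriers.

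The AMP-activated kinase, which responds to the AMP that adenylate kinases produce, had 10 of 11 genes listed, 6 higher and 4 lower, with a median of 0.14. The catalytic subunit gene Prkaa2 stood at 6.79 RPKM with HFD and 3.36 RPKM in the control library, for a ratio of 2.02 (1.77 to 2.32). Past 2-fold as a plain ratio, Prkaa2 was not so on the log2(RPKM + 1) scale, at 0.84. Prkaa1 was equal within counting error at 8.10 and 8.27 RPKM. Of the regulatory subunits, Prkab1 stood at 27.3 and 29.0 RPKM and Prkag1 at 31.9 and 24.3 RPKM. Stk11, the upstream kinase also called LKB1, was the only one over 2-fold lower, beside 23.9% of all listed genes. It stood at 14.7 against 36.7 RPKM (2.50 times lower, 2.33 to 2.67). Its partner Cab39 stood at 37.3 and 34.6 RPKM.

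Enzymes that make, salvage or break down AMP had 11 of 14 genes listed, 5 higher and 6 lower, with a median of -0.01. Past 2-fold, 2 were higher and 2 lower, beside the 12.5% and 23.9% of all listed genes. Nt5e, which splits AMP outside the cell into adenosine and phosphate, stood at 48.9 against 23.6 RPKM, a ratio of 2.07 (1.97 to 2.17). Ada, adenosine deaminase, was listed in the HFD library only, at 2.13 RPKM. Adsl, a step of AMP synthesis, stood at 3.14 against 11.5 RPKM, 3.66 times lower, and Aprt, which salvages adenine, 2.87 times lower (11.8 against 33.8 RPKM). Adk, which returns adenosine to AMP, stood at 23.1 and 21.2 RPKM.

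The other nucleotide kinases had 10 of 11 genes listed, 3 higher and 7 lower, with a median of -0.19. Past 2-fold, 1 was higher and 3 lower, beside the 12.5% and 23.9% of all listed genes. Of the 3, Nme3 (1.00 RPKM in the control library) and Cmpk2 (1.17 RPKM) pass only because the HFD value is entered as 0 and not as the floor. Nme4, a mitochondrial nucleoside diphosphate kinase, stood at 5.73 against 1.21 RPKM, a ratio of 4.75 (2.94 to 7.93). Cmpk1, the UMP and CMP kinase, stood at 5.77 against 12.6 RPKM. The more abundant Nme2, Guk1 and Nme1 had ratios of 1.09, 0.956 and 0.946. Of the ATPase subunit genes, Atp4a had a ratio of 1.16, Atp4b one of 1.29 and Atp1b1, a sodium pump subunit, one of 0.959.

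**Figure D4:**
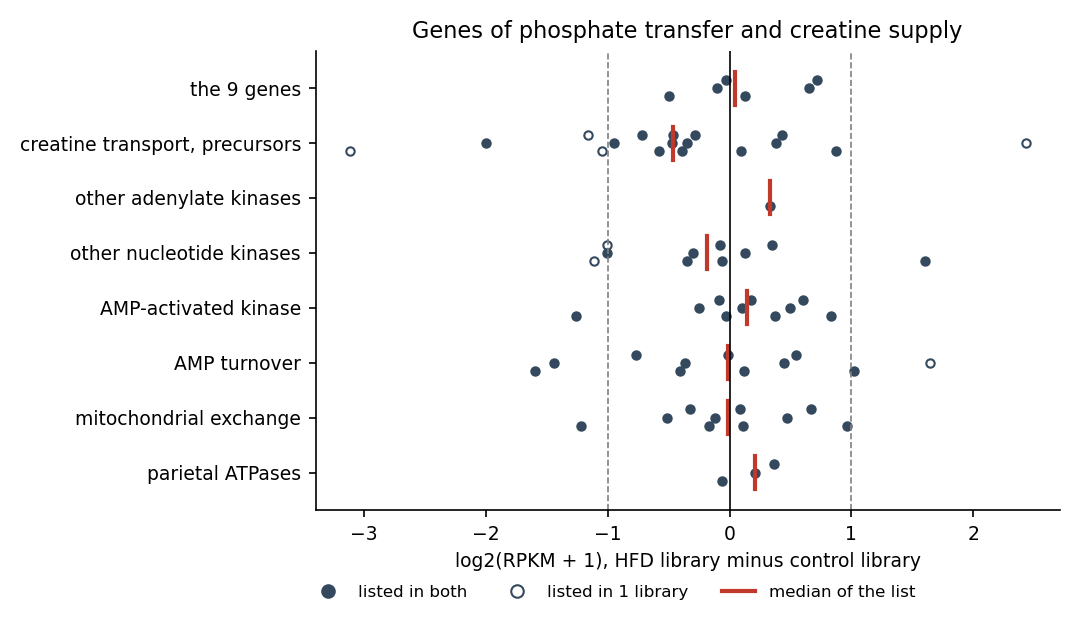
Difference in log2(RPKM + 1) between the HFD and the control library for each gene of the 9 and of 7 lists of the pathway; filled points are listed in both libraries, open points in 1, red bars are list medians and dashed lines mark 2-fold. The 6 listed genes of the 9 stay within 2-fold, and the list of creatine transport and precursors has the lowest median, -0.46.

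The cells were labelled as parietal, and parietal markers were abundant in both libraries, but markers of other cells were present and differed between the libraries. Of 17 parietal markers found, 14 were higher in the HFD library, against 44.0% of all listed genes. Their median difference in log2(RPKM + 1) was 0.46, less than the shift of -0.61 that the scaling without the 20 most abundant genes brings, and their summed level was 14295 RPKM against 11436 RPKM. Gif, at 397 RPKM with HFD and 494 RPKM in the control library, is counted in both the parietal and the chief list. Pit cell markers summed to 36084 against 14598 RPKM and chief cell markers to 48583 against 106833 RPKM. Single genes weigh heavily in these sums: Gkn1 held 21736 and 5021 RPKM of the pit sum, and Pgc 45624 and 102292 RPKM of the chief sum. Of 6 listed pit markers 4 were higher with HFD and 2 lower, with a median difference of 0.21. Of 5 listed chief markers 1 was higher and 4 lower, with a median of -0.64. Endocrine markers summed to 1211 against 8296 RPKM, of which Ghrl held 707 and 5913 RPKM. Of these 6 genes 5 were lower with HFD and 1, Gast, was higher (119 against 102 RPKM). Smooth muscle markers summed to 32.9 against 201 RPKM with all 9 lower, and fibroblast markers to 46.9 against 143 RPKM with all 7 lower. Neuron and glia markers, relevant to the brain-type Ckb, were at 0 for 7 of 8 genes with HFD and 6 of 8 in the control library, and none exceeded 1.80 RPKM. Of 4 listed hepatocyte markers, 3 were lower with HFD and 1, Apoa1, was higher, with a median of -1.37. The part of all these cell types in the values of the 9 genes and of the pathway lists was not tested. In such a bulk library fewer cells of a type and less RNA per cell cannot be told apart. Depth was estimated as 25.5 M reads with HFD and 9.84 M in the control library.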

How the data were processed

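RNA was measured in 1 library per diet, made from rRNA-depleted total RNA with an Ion Torrent kit per the labels' protocols. Submitters' processing notes name bedtools 2.25.0 and build mm10; not given in the sources used here are aligner, counting rule and annotation. The deposited values are log2 of RPKM by the authors, with genes at or below 1 RPKM listed as 0 (largest log2 value 18.22). Symbols, positions and exon lengths came from GENCODE M21 (36308 identifiers matched, 1779 did not). Depth was estimated from the spacing of RPKM times length in single-exon genes: 49.7% and 35.6% of low values were whole within 0.005 of a read, against 1% by chance. Differences used a pseudocount of 1 RPKM; a gene listed at 0 was entered as 0. Ratios of RPKM carry exact conditional binomial 95% intervals (ratios of ratios: normal intervals on the log scale) from estimated reads, which without molecular identifiers are not independent molecules. Calculations were tested on simulated data. Near-identical copies were sought as shared words of 50 bases in all annotated transcripts.

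Genes named were the 9 and, of each list, up to 4 by mean level plus the extremes of the ratio (all of lists of 6 or fewer); Gnmt, Arg2, Ada, Prkaa1, Slc7a2, Mat1a, Nme3, Cmpk2, Tnni2, Gm12892, Ak3l2-ps, Cdc37l1 and Taf9 were added after their values were seen. A pair of genes was taken out of the pathway lists after their values were seen and is not reported here. Of marker lists, only sums and a few genes are given. No likeness of pattern was computed over 2 libraries. The genes, lists and comparisons were chosen with earlier results of these data known. Versions were Python 3.11.15, scipy 1.17.1, pandas 2.3.3 and Biopython 1.88.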

Additional observations from a re-analysis of the deposited data

How the results depend on the processing

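The count of genes over 2-fold, 0 of the 6 listed in each direction, stayed at 0 under all 6 alternatives. Of these, 3 were a pseudocount of 0.1 RPKM, genes listed at 0 entered at 1 RPKM with no pseudocount, and scaling to the median of coding genes. The others were scaling that leaves the 20 most abundant genes out of the total, a minimum of 5 RPKM and no minimum. The 2 changes of minimum could not raise the count. A minimum of 5 RPKM leaves out Gamt, for 5 genes, and no minimum adds only genes at 0 in both libraries. All 6 genes are listed in both libraries, so entering zeros at 1 RPKM changes only their pseudocount. As a plain ratio, Gamt was 0.428 when the 20 most abundant genes were left out. The median over the 6 was 0.05 and moved to -0.55 when the 20 most abundant genes were left out of the scaling total, which shifts every HFD value by -0.61; 2 of the 6, Ak3 and Ak4, were then higher. The median over the pathway lists moved from -0.07 to -0.64 under that scaling. Under the others these medians lay between 0.00 and 0.13 and between -0.07 and 0.00. Ckmt1 was at 0.01 instead of -0.03 scaled to the median of coding genes. With the reads of its near-identical copy added, chosen after seeing the data, Ckb was at 0.06 instead of -0.10 and stood above Ckmt1 and Ak3 in both libraries. Gene lengths from the longest transcript widened the median counting interval from 0.18 to 0.19 on the log2 scale. Depth limits Gamt most, with about 71 reads in the control library. No paired analysis was possible because each diet has 1 library, and for the same reason no library could be left out.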
